A study of Homo sapiens with 4 samples.

Results

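The 40 genes described here act in mitosis or in the spindle assembly checkpoint, and they were taken by symbol from a list of such genes that leaves out the genes with kinesin symbols (CENPE, itself a kinesin motor, is among the 40). They are 40 of the 19775 genes with a value on the arrays, and 82 probe sets (groups of oligonucleotide probes for 1 transcript) were paired with these symbols alone. The 40 were chosen with earlier results of these data known. Transcript levels were measured on 4 Affymetrix arrays, 1 for each combination of cell line and siRNA. The groups were NCI-H209 cells with siTTF-1, NCI-H209 cells with siNTC, Lu139 cells with siTTF-1 and Lu139 cells with siNTC. Both are established human small cell lung cancer lines, siTTF-1 stands for siRNAs against TTF-1 (a homeodomain transcription factor of lung, encoded by NKX2-1), and siNTC for control siRNAs, with all 4 groups electroporated. The time between electroporation and RNA extraction is not given in the sources used here. Within each line there was 1 array per siRNA, so the siRNA effect is replicated only by the pair of lines.

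As background, entry into mitosis is driven by the kinase CDK1 with its A and B cyclins, which CDC25 phosphatases switch on. Chromosomes then attach to spindle microtubules through kinetochores, and the spindle assembly checkpoint holds the anaphase-promoting complex inactive until every kinetochore is attached. The complex, activated by CDC20, then marks securin and cyclin B for destruction, separase opens the cohesin rings, and the cell divides. Transcripts of most of these genes are made in the G2 phase and in mitosis, under FOXM1, B-MYB and the MuvB complex, so their summed level in a bulk RNA sample follows how many cells are in those phases. In bulk samples, fewer cells in those phases and less RNA in each of them cannot be told apart.

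The targeted transcript was lower in both lines. NKX2-1 had an intensity of 243 with siTTF-1, against 596 with siNTC in NCI-H209 on its brighter probe set. In Lu139 it had 461 with siTTF-1, against 780 with siNTC. The second probe set stood at 64.6% (NCI-H209) and 55.3% (Lu139) of its control intensity. Array medians were between 48.4 and 57.7. The neuroendocrine genes INSM1, CHGA, NCAM1, DLL3, GRP and SYP, which mark this cancer, were above the expression limit (an intensity of 37.0) in both lines. Of 6 markers of other cell types, 3 (PTPRC of leukocytes and the fibroblast collagens COL1A2 and COL3A1) were below that limit in both lines, and 3 (CD3E of T cells, PECAM1 of endothelium and COL1A1) lay above it at 63.7 to 362. COL1A1, at 259 to 362, was read by a probe set that can cross-hybridise by its name (suffix x). The summed intensity of all 6 was 586 with siTTF-1 against 529 with siNTC in NCI-H209, and 632 with siTTF-1 against 547 with siNTC in Lu139. The part of these differences in the results was not tested.

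All 40 genes were above the expression limit in both lines, so none was removed as too dim. After siTTF-1, 23 of them (57.5%) were lower in both lines, where 27.5% of the 13306 genes expressed above the limit in NCI-H209 and Lu139 were lower, and 6 were higher in both, against 37.7% of all. The remaining 11 had opposite signs in the lines, as had 4240 of the 13306 genes, a like share. The share of all genes lower in both lines depended on the expression limit. It was 23.2% with no limit and 32.0% with the limit at the 60th percentile, and the 40 genes had intensities of 189 or more. The median log2 fold change, siTTF-1 over siNTC, was -0.11 (NCI-H209) and -0.09 (Lu139). The same medians over all genes above the limit in a line were 0.01 (NCI-H209) and 0.03 (Lu139). Fold changes are on the log2(intensity + 18.7) scale, which slightly understates the change of dim genes. The differences were small in size: at least 1.5-fold lower were 2 of the 40 in NCI-H209, where 3.52% of all genes were, and 1 of the 40 in Lu139, where 0.936% of all were. Counts this small lie near the share of all genes. Because the 40 were chosen with earlier results of these data known, the shares in this paragraph are not an independent comparison with all genes.

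Across both lines, limma, with the line as a block, called 0 of the 40 at an adjusted p under 0.05, as it called 0% of all 14547 tested genes. At an unadjusted p under 0.05, limma had 11 of the 40 (27.5%) lower, against 9.25% of all tested genes, and 0 higher, against 7.23% of all. The 11 were BIRC5, HMMR, CENPF, TOP2A, NDC80, PRC1, NUF2, CENPE, ASPM, AURKA and ECT2. Each was lower in both lines, which choosing genes by this p favours. Of all tested genes, 6.99% were lower at that limma p with no expression limit, and 11.3% with the limit at the 60th percentile. Since the 40 were chosen with earlier results of these data known, the count of 11 is not an independent result. Without the line as a block, limma had 1 of the 40 lower at an unadjusted p under 0.05, against 0.117% of all tested genes. The log2 fold changes of the lines had a Pearson r of 0.75 and a Spearman rho of 0.70 across the 40 genes, against 0.52 and 0.47 across the 13306 genes. This is a correlation across genes that share the 4 arrays, and genes are not independent replicates. Among the 23 genes lower in both lines, the difference was larger in NCI-H209 for 16, as it was for 2631 of all 3658 genes lower in both lines, a like share.

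**Figure D1:**
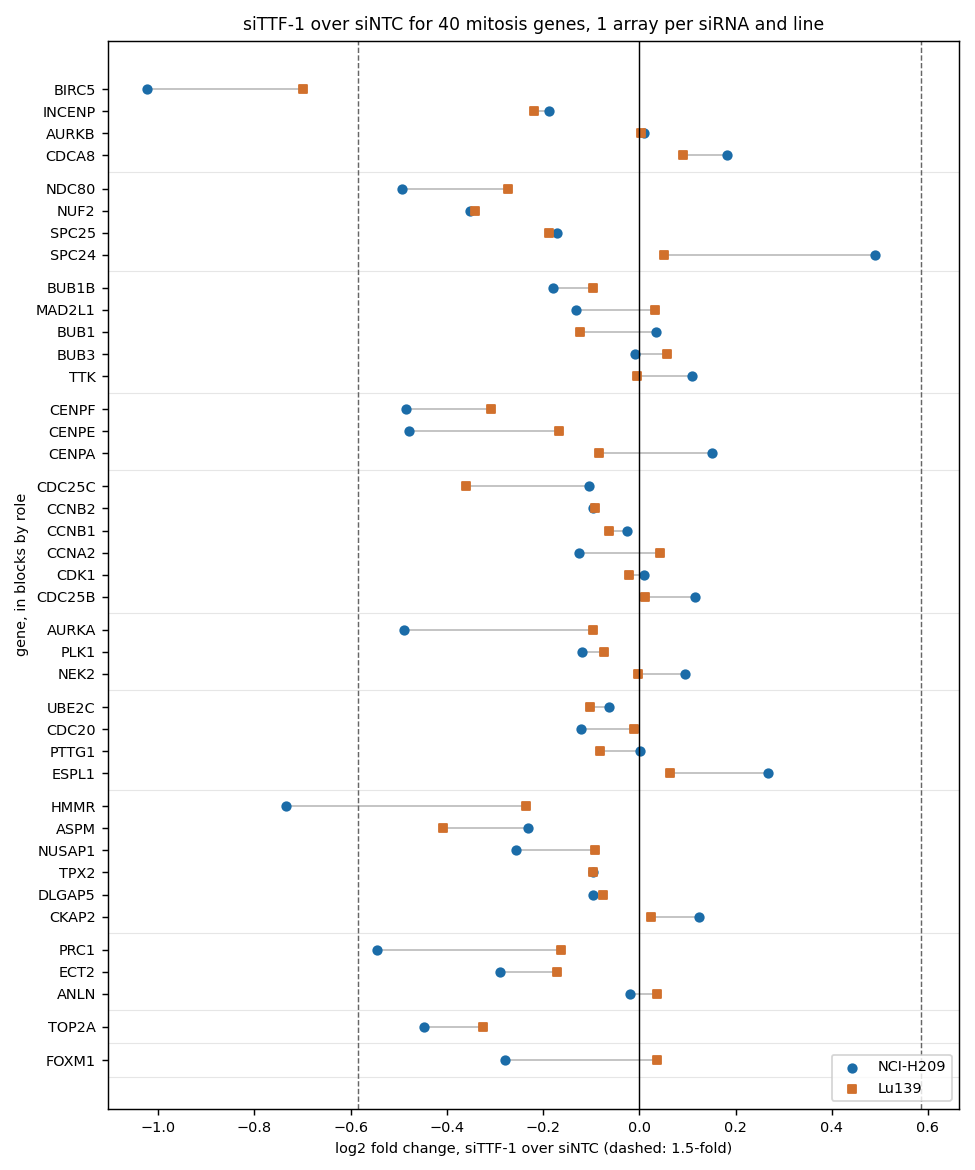
Log2 fold change (siTTF-1 over siNTC, horizontal axis) of the 40 genes, with NCI-H209 as circles and Lu139 as squares, 1 array per siRNA and line. Blocks from top to bottom are the chromosomal passenger complex, the NDC80 complex, the checkpoint, centromere proteins, CDK1 with its cyclins and CDC25 phosphatases, other mitotic kinases, anaphase-promoting complex partners with securin and separase, spindle proteins, cytokinesis, TOP2A and FOXM1. BIRC5 lies past the dashed 1.5-fold line in both lines, HMMR in NCI-H209, and 23 genes have both points left of 0.

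Within the chromosomal passenger complex, which corrects faulty kinetochore attachments and then directs cytokinesis, the subunits did not have 1 direction. BIRC5, the gene of survivin, the subunit that brings the complex to centromeres, had an intensity of 1997 with siTTF-1, against 4077 with siNTC, in NCI-H209, and of 2153 with siTTF-1, against 3505 with siNTC, in Lu139. Both siTTF-1 arrays lay below both control arrays, an order whose share among all genes was not counted. Averaged over the lines, the log2 fold change was -0.86 (SD 0.23, n = 2) with a limma 95% confidence interval of -1.09 to -0.63. Its limma adjusted p of 0.0713 was the lowest over all genes, a value it shared with 23 others, and its effect ranked 42 from the lowest of 14547. With quantile normalization over the 4 arrays the limma adjusted p was 0.0245, within each line 0.0329, and with a higher expression limit 0.0381, so the call of BIRC5 rests on these settings. The other 3 probe sets of BIRC5 were lower in both lines too, at log2 fold changes of -1.05, -0.70 and -0.59 (NCI-H209) and of -0.76, -0.58 and -0.46 (Lu139).

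AURKB, the kinase of the same complex, had 860 with siTTF-1 against 855 with siNTC in NCI-H209, and 701 with siTTF-1 against 700.1 with siNTC in Lu139. Averaged over the lines, the log2 fold change was 0.01, with a limma interval of -0.22 to 0.23. CDCA8, the gene of the subunit borealin, had 3964 with siTTF-1 against 3493 with siNTC in NCI-H209 and 979 with siTTF-1 against 918 with siNTC in Lu139. Its mean of 0.14 had a limma interval of -0.06 to 0.33. INCENP, the scaffold that activates the kinase, had log2 fold changes of -0.19 and -0.22 in NCI-H209 and Lu139. The intervals of BIRC5 on one side and AURKB and CDCA8 on the other do not overlap.

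**Figure D2:**
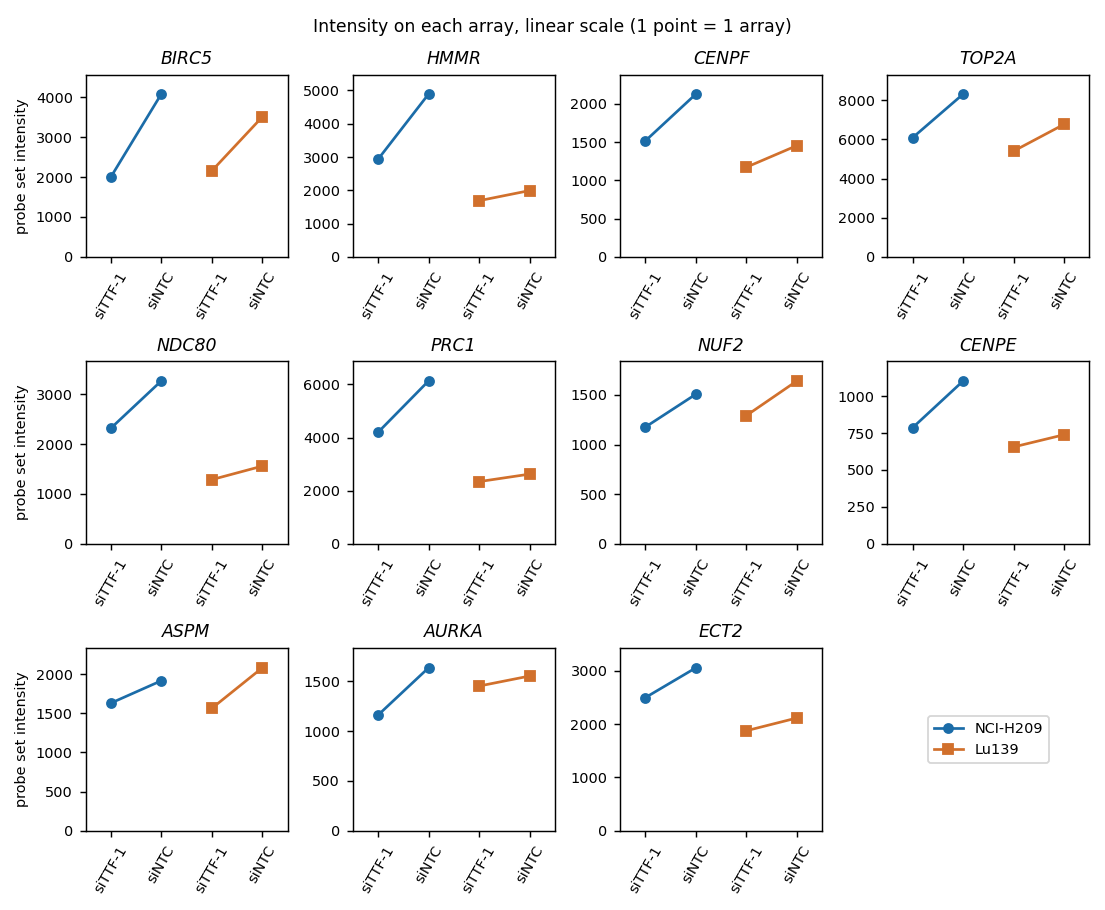
Probe set intensity (linear vertical axis from 0) on each of the 4 arrays for the 11 genes with an unadjusted limma p under 0.05, siTTF-1 left of siNTC in each line, 1 point per array. All 22 lines slope downward toward siTTF-1, which choosing genes by that p favours. How many of all genes have both siTTF-1 points below both siNTC points was not counted. Of the 11, BIRC5, TOP2A, NUF2, ASPM and AURKA do. For NUF2, ASPM and AURKA this rests on the deposited scaling. With quantile normalization over the 4 arrays they were higher in Lu139 by log2 differences of 0.59, 0.50 and 0.58.

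In the NDC80 complex, the rod that binds the microtubule at the outer kinetochore, 3 of 4 subunits were lower in both lines and 1 was higher in both. NDC80 had an intensity of 2316 with siTTF-1 against 3265 with siNTC in NCI-H209, and of 1286 with siTTF-1 against 1557 with siNTC in Lu139, an average log2 fold change of -0.38 (SD 0.16, n = 2). NUF2, its partner in the head that holds the microtubule, had 1176 with siTTF-1 against 1507 with siNTC in NCI-H209, and 1292 with siTTF-1 against 1641 with siNTC in Lu139. The log2 fold changes of NUF2 in the lines, -0.35 and -0.34, were almost equal. SPC25, which anchors the rod to the inner kinetochore, had -0.17 and -0.19. SPC24, the partner of SPC25 in that anchor, had 943 with siTTF-1 against 666 with siNTC in NCI-H209 and 301 with siTTF-1 against 290 with siNTC in Lu139. It had the highest mean of the 40 genes, 0.27, with a limma interval of -0.04 to 0.58, from 0.49 (NCI-H209) and 0.05 (Lu139). A second, dim probe set of SPC24 gave 0.06 and 0.00, and the mean of all probe sets gave 0.15 in place of 0.27.

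Of the 3 centromere proteins, both large ones were lower. CENPF, a kinetochore protein that binds microtubules, had 1516 with siTTF-1 against 2128 with siNTC in NCI-H209, and 1172 with siTTF-1 against 1455 with siNTC in Lu139. The log2 fold change averaged -0.40 (SD 0.12, n = 2), and a second probe set gave -0.51 and -0.41. CENPE, the kinetochore motor that moves chromosomes to the spindle equator, had 787 with siTTF-1 against 1103 with siNTC in NCI-H209 and 656 with siTTF-1 against 739 with siNTC in Lu139. In both genes the arrays of a line were apart by more in NCI-H209. CENPA, the histone H3 variant that marks the centromere, had log2 fold changes of 0.15 and -0.08. It was read by a probe set that can cross-hybridise by its name (suffix x), as were FOXM1 and PTTG1.

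The 5 genes of the spindle assembly checkpoint itself lay close to 0. BUB1B, the gene of the inhibitor BUBR1, was the lowest (-0.18 in NCI-H209, -0.10 in Lu139) and the 1 checkpoint gene lower in both lines. MAD2L1, which binds CDC20, had -0.13 and 0.03, and BUB1, a kinase of the kinetochore, had 0.03 and -0.12. BUB3, which docks both BUB proteins, had -0.01 and 0.06, and TTK, the kinase MPS1 that starts the signal, had 0.11 and -0.00. At an unadjusted p under 0.05, limma had 0 of these 5, a count too small to set against the 9.25% of all tested genes that were lower.

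Of the cyclin-dependent kinase that drives mitosis and its partners, limma had 0 of 6 at an unadjusted p under 0.05. This count is too small to set against the 9.25% of all tested genes that were lower. CDK1 had 5459 with siTTF-1 against 5419 with siNTC in NCI-H209, and 2132 with siTTF-1 against 2164 with siNTC in Lu139. The log2 fold change of this probe set averaged -0.01 over the lines, with a limma interval of -0.17 to 0.16. CCNB1, the gene of cyclin B1, had 2862 with siTTF-1 against 2913 with siNTC in NCI-H209 and 1752 with siTTF-1 against 1830 with siNTC in Lu139. Its mean of -0.04 (limma interval -0.23 to 0.14) became 0.06 with the mean of all probe sets, since a second probe set gave 0.24 and 0.10. CCNB2 (cyclin B2) had -0.10 and -0.09, CCNA2 (cyclin A2) -0.13 and 0.04, and CDC25B, a phosphatase that activates CDK1, 0.12 and 0.01. CDC25C, the other such phosphatase listed, was the lowest of the 6 at -0.10 and -0.36. Its intensities were 189 to 341. A dim probe set of CDC25C gave -0.01 (NCI-H209) and 0.27 (Lu139), and another gave -0.18 and -0.28, so the direction in Lu139 differed between them.

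Among other mitotic kinases, AURKA, which matures centrosomes and builds the spindle, had 1160 with siTTF-1 against 1634 with siNTC in NCI-H209, and 1451 with siTTF-1 against 1552 with siNTC in Lu139. Its mean log2 fold change of -0.29 (SD 0.28, n = 2 lines) averages -0.49 (NCI-H209) and -0.10 (Lu139). The other probe sets of AURKA gave -0.40 and -0.11 (NCI-H209) and -0.08 and 0.00 (Lu139). PLK1, which acts from mitotic entry to cytokinesis, had 211 with siTTF-1 against 231 with siNTC in NCI-H209 and 252 with siTTF-1 against 266 with siNTC in Lu139, a mean of -0.10 with a limma interval of -0.33 to 0.14. NEK2, which separates centrosomes, had 0.09 and -0.00.

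The partners of the anaphase-promoting complex had small values. CDC20, its activator, had -0.12 and -0.01, UBE2C, the ubiquitin-conjugating enzyme that starts chains on its substrates, had -0.06 and -0.10, and PTTG1 (securin) had 0.00 and -0.08. ESPL1, the gene of separase, had 753 with siTTF-1 against 623 with siNTC in NCI-H209, and 1048 with siTTF-1 against 1002 with siNTC in Lu139. Its mean of 0.17 had a limma interval of -0.08 to 0.41. A second probe set of ESPL1 gave 0.08 and -0.08.

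Spindle proteins held the second lowest gene of the 40. HMMR, which binds microtubules and hyaluronan and helps to assemble the spindle, had 2933 with siTTF-1 against 4891 with siNTC in NCI-H209, and 1689 with siTTF-1 against 1992 with siNTC in Lu139. The average log2 fold change of HMMR was -0.49 (SD 0.35, n = 2; limma interval -0.77 to -0.20). Its other probe set gave -0.77 and -0.36. ASPM, a spindle pole protein, had its larger difference in Lu139. It had 1630 with siTTF-1 against 1917 with siNTC in NCI-H209 and 1564 with siTTF-1 against 2082 with siNTC in Lu139, log2 fold changes of -0.23 and -0.41. Its other probe sets gave -0.33 and 0.13 (NCI-H209) and -0.88 and -0.57 (Lu139), so the direction in NCI-H209 differed between them. NUSAP1, which bundles microtubules near chromosomes, had -0.26 and -0.09, TPX2, the activator of AURKA, -0.10 and -0.10, DLGAP5 (HURP), a stabiliser of kinetochore fibres, -0.10 and -0.08, and CKAP2 0.12 and 0.02. A second probe set of NUSAP1 gave -0.21 and -0.42.

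Of the cytokinesis genes, PRC1, which cross-links the microtubules of the central spindle, had 4198 with siTTF-1 against 6133 with siNTC in NCI-H209, and 2342 with siTTF-1 against 2624 with siNTC in Lu139. The average log2 fold change of PRC1 was -0.35 (SD 0.27, n = 2). ECT2, the exchange factor that activates RhoA at the cell equator, had 2496 with siTTF-1 against 3055 with siNTC in NCI-H209 and 1875 with siTTF-1 against 2114 with siNTC in Lu139. ANLN, the actin-binding scaffold anillin of the contractile ring, had 2381 with siTTF-1 against 2412 with siNTC in NCI-H209 and 691 with siTTF-1 against 673 with siNTC in Lu139, a mean of 0.01 with a limma interval of -0.20 to 0.22.

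TOP2A, the topoisomerase that untangles sister chromatids, had 6090 with siTTF-1 against 8316 with siNTC in NCI-H209, and 5406 with siTTF-1 against 6774 with siNTC in Lu139. Both siTTF-1 arrays lay below both control arrays, an order not counted over all genes. The average log2 fold change was -0.39 (SD 0.09, n = 2, limma interval -0.53 to -0.24). A second probe set gave -0.61 and -0.15. FOXM1, the transcription factor that activates many of the other 39 genes, had 1583 with siTTF-1 against 1925 with siNTC in NCI-H209, and 895 with siTTF-1 against 873 with siNTC in Lu139. Its log2 fold changes were -0.28 and 0.04, a mean of -0.12 with a limma interval of -0.38 to 0.13.

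**Figure D3:**
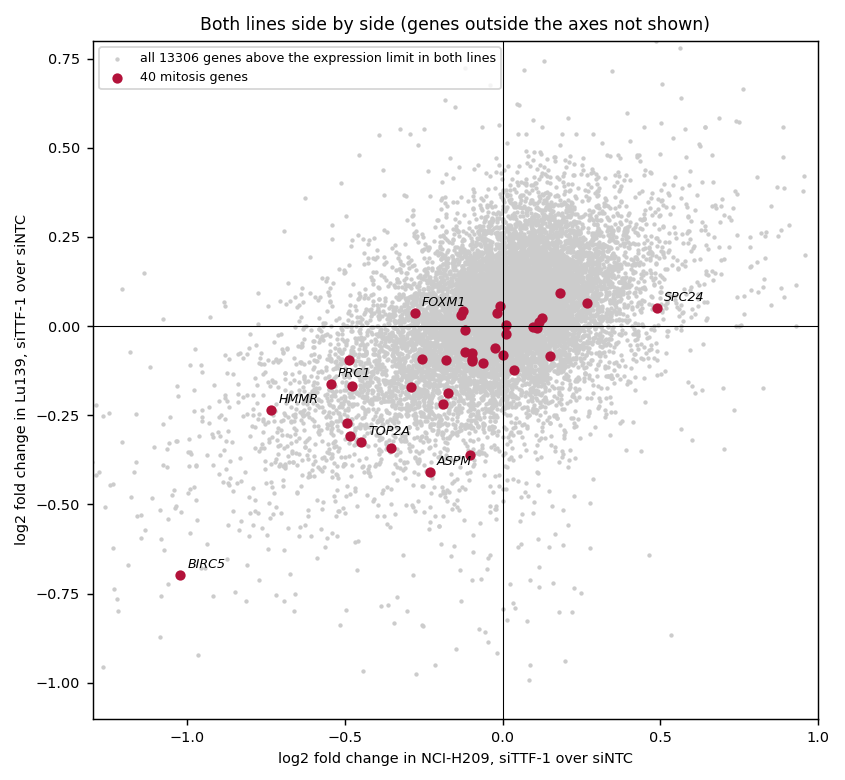
Log2 fold change (siTTF-1 over siNTC) in NCI-H209 on the horizontal and in Lu139 on the vertical axis, with the 40 genes in red over the 13306 genes above the limit in grey. Of the 40, BIRC5 lies farthest to the lower left, and 23 of the 40 lie in the lower left quadrant, against 27.5% of all genes.

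At the level of probe sets, 74 of the 82 were above the expression limit in both lines. Of these, 38 (51.4%) were lower in both lines and 11 higher in both, where 29.0% of all 24523 such probe sets were lower in both. Single probe sets read 18 of the 40 genes, so another probe set could not bear on their values. Probe sets of CDK1 gave 0.00 and -0.23, -0.02 and -0.21 and 0.26 and -0.06, beside 0.01 and -0.02 for the brightest. Those of CCNA2 had opposite signs in each line, -0.13 and 0.04 for the brightest against 0.13 and -0.12. Of the 22 genes with several probe sets above the limit, 10 had all of them on 1 side of 0 within each line. Those of BUB1 above the limit gave 0.22 and -0.29 and 0.13 and -0.04. The median size of the log2 fold change over the 40 genes was 0.14 (NCI-H209) and 0.09 (Lu139). Over all genes above the limit in both lines it was 0.14 and 0.11. Probe sets of CDK1, of CCNA2 and of BUB1 differed within a line by as much as the medians of the 40.

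Promoter sequence was looked up for what the genes share in the DNA. The windows, from RefSeq annotation on GRCh38.p14, run from 250 bases before to 50 after each start, and 33 of the 40 genes matched. The others were BIRC5, AURKA, FOXM1, TPX2, TTK, UBE2C and BUB3. The letters TTTGAA, the core of the cell cycle homology region that the MuvB complex binds, were in 23 of the 33 (69.7%) on either strand, against 18.2% of all 27305 genes with a window. CCAAT, the box bound by NF-Y, was in 27 of 33 (81.8%), against 39.7% of all. CAAGTG, a core recognised by NKX2 factors, was in 4 of 33 (12.1%), against 13.8% of all. Of the genes at an unadjusted limma p under 0.05, 9 had a window, of which 8 held TTTGAA, 6 held CCAAT and 3 held CAAGTG. Among the other 24, 15, 21 and 1 held them. A match of letters is a description and not a binding site.

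The 200 bases before the start are shown for the genes with a window that had the lowest mean fold changes (HMMR, CENPF, TOP2A, NDC80) and the highest (SPC24, ESPL1, CDCA8), so that both ends of the order can be compared. Capitals mark the 3 motifs named above, on either strand, and adjoining matches join into 1 run. They lie at chr5:163460432-163460631 (plus strand), chr1:214602995-214603194 (plus), chr17:40417897-40418096 (minus), chr18:2571357-2571556 (plus), chr19:11155783-11155982 (minus), chr12:53268099-53268298 (plus) and chr1:37692316-37692515 (plus), in the order below.
HMMR: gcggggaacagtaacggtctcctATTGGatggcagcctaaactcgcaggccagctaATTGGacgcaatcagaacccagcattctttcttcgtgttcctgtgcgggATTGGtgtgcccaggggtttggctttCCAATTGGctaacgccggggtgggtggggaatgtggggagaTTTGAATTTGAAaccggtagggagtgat
CENPF: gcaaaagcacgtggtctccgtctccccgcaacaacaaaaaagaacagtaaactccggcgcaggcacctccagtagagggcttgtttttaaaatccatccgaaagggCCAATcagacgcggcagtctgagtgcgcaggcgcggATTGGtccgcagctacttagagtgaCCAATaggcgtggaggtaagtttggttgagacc
TOP2A: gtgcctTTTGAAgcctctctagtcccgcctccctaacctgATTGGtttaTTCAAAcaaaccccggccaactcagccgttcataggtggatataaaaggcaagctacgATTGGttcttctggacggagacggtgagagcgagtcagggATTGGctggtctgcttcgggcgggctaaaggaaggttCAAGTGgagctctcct
NDC80: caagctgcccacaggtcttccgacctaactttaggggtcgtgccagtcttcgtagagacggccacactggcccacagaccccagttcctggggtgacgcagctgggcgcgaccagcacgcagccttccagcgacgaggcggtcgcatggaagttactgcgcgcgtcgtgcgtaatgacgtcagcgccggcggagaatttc
SPC24: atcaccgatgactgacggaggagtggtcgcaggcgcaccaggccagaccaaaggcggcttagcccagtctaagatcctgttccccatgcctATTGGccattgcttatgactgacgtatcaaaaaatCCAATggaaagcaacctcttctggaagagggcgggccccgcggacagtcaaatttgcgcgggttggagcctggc
ESPL1: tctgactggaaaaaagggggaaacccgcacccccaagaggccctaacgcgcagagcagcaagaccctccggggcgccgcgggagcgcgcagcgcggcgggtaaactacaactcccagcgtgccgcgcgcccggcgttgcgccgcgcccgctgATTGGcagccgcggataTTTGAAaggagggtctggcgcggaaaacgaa
CDCA8: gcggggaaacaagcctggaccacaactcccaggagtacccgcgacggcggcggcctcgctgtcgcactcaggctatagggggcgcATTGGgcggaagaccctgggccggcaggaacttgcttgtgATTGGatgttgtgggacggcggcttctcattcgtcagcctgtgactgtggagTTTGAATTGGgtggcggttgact

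HMMR holds a pair of adjoining TTTGAA near its start, and a CAAGTG farther from it than the stretch shown. TOP2A holds 1 TTTGAA on each strand and a CAAGTG. CENPF has its TTTGAA after the start, outside the stretch shown, and the one of NDC80 crosses the start on the other strand, so it is not in capitals. CDCA8 and ESPL1, neither lower in either line on its brightest probe set, hold TTTGAA and CCAAT as well, and SPC24 holds CCAAT alone. Across the 40 genes the mean log2 fold change had a Spearman rho of -0.47 (Pearson r -0.31) with the log10 length of the gene's span in GRCh38.p14, against -0.22 (r -0.20) across 14530 tested genes. Longer genes tended to have lower fold changes, among the 40 and among all genes.

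Other mitosis genes outside the 40 were counted for comparison, from lists also chosen with earlier results of these data known. Of 79 in 7 groups, all above the limit in both lines, 42 were lower and 16 higher in both lines, beside 27.5% and 37.7% of all genes. The median was -0.11 (NCI-H209) and -0.04 (Lu139), and limma had 14 lower, against 9.25% of all tested genes, and 0 higher, against 7.23% of all, at an unadjusted p under 0.05, with 0 at an adjusted p under 0.05. Condensin, which compacts mitotic chromosomes, had 6 of 8 subunits lower in both lines and 0 higher. Outer kinetochore adaptors had 10 of 16 lower and 0 higher, and inner kinetochore genes 7 of 15 and 2. Subunits of the anaphase-promoting complex and its cofactors had 4 of 15 lower and 7 higher. Cohesin had 5 of 10 and 3, mitotic entry regulators 6 of 9 and 2, and the MuvB and B-MYB complex 4 of 6 and 2.

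The lowest of these by the mean were PDS5B, a cohesin regulator (-0.73 in NCI-H209 and -0.45 in Lu139), CENPU of the inner kinetochore (-0.87 and -0.30) and SMC4, a condensin core subunit (-0.88 and -0.20). The highest were CENPK of the inner kinetochore (0.27 and 0.17), LIN52 of MuvB (0.28 and 0.16) and FZR1, the activator of the anaphase-promoting complex that takes over from CDC20 (0.19 and 0.19).

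The level of the 40 genes was then compared between the lines, with both siRNAs pooled in the line term of the same limma fit. Lu139 had lower intensities of most of them: limma called 32 of the 40 (80.0%) lower in Lu139 at an adjusted p under 0.05, where it called 51.7% of all tested genes, and 2 (5.0%) higher, against 18.7% of all. All tested genes had a median difference, Lu139 minus NCI-H209, of -0.28 on the log2 scale, and the 40 had one of -0.64. Relative to the median of all genes, 31 of the 40 were lower in Lu139 and 9 higher. Quantile normalization over the 4 arrays brought the median of all genes to 0.04 and that of the 40 to -0.18, with 20 lower (32.8% of all genes) and 7 higher (36.7% of all) at an adjusted limma p under 0.05. With line and siRNA in the fit, the error behind these p-values is how far the siRNA effect differed between the lines, moderated by limma over all genes, and it holds no repeat of a line and siRNA.

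CDCA8 differed most, with 979 and 918 in Lu139 (siTTF-1 and siNTC) against 3964 and 3493 in NCI-H209, a log2 difference of -1.95 (limma interval -2.15 to -1.75). ANLN had 691 and 673 in Lu139 against 2381 and 2412 in NCI-H209, a difference of -1.79. CDC25B had 746 and 740 in Lu139 against 2493 and 2298 in NCI-H209, a difference of -1.66. That the arrays of the lines did not overlap in these 3 follows from choosing the largest differences. All 3 were also lower with quantile normalization, by log2 differences of -1.50, -1.32 and -1.20.

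On the other side, ESPL1 had 1048 and 1002 in Lu139 against 753 and 623 in NCI-H209, a log2 difference of 0.57 (limma interval 0.33 to 0.81). UBE2C had 4404 and 4728 in Lu139 against 3427 and 3578 in NCI-H209, a difference of 0.38 with an interval of 0.22 to 0.54. PLK1 followed with 0.21 (limma interval -0.03 to 0.45, limma adjusted p = 0.0953). With quantile normalization, BIRC5, ASPM, AURKA, NUF2 and PLK1 joined these 2 as higher in Lu139. BIRC5 was there at 0.41 against -0.05 in the deposited scaling, so its order between the lines rests on the scaling.

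**Figure D4:**
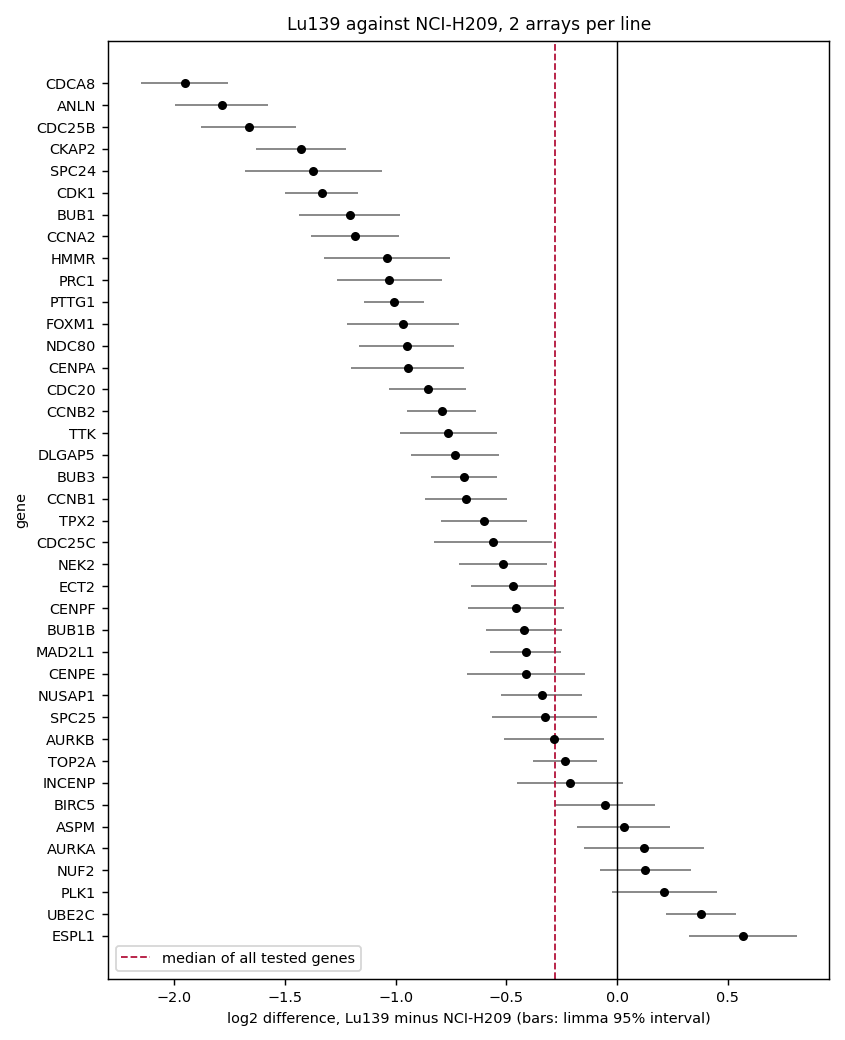
Log2 difference, Lu139 minus NCI-H209 (horizontal axis), of the 40 genes with the 95% interval of limma as bars, 2 arrays per line, and the median of all tested genes (-0.28) as a dashed line. CDCA8, ANLN and CDC25B lie farthest left, and ESPL1 and UBE2C lie wholly right of 0.

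The 3 genes that differed most between the lines (CDCA8, ANLN and CDC25B) were not among the 11 lower after siTTF-1 at an unadjusted limma p under 0.05. Across the 40, the line difference and the mean log2 fold change after siTTF-1 had a Spearman rho of -0.43 (Pearson r -0.38), a description over genes read on the same 4 arrays. NUF2, ASPM and BIRC5, among the lowest after siTTF-1, were within 0.13 of equal between the lines in the deposited scaling, though higher in Lu139 by 0.59, 0.50 and 0.41 with quantile normalization, while HMMR, NDC80 and PRC1 were lower after siTTF-1 and also lower in Lu139.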

How the data were processed

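The deposited table holds 1 linear intensity per probe set and array. The submitters' processing notes name Affymetrix Expression Console. Its version and algorithm, and the genome build, were not given in the sources used here. On the arrays of 1 line, 2416 (NCI-H209) and 2206 (Lu139) probe sets had exactly equal values, against 0 between lines, so each line may have been scaled apart from the other.

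Probe sets were named from the platform annotation, updated by gene identifier through RefSeq (GRCh38.p14). Of 54675, 41091 had 1 symbol, 1801 several and 11721 none, with 62 control probe sets left out. All 4 arrays entered the fit. A gene took its brightest probe set, on log2(intensity + 18.7), the 25th percentile of all values. The expression limit was the 40th percentile of mean log2 values. limma 3.58.1 (R 4.3.3) fitted line and siRNA with an intensity trend, with 1 residual and 5.91 prior degrees of freedom, two-sided, with Benjamini-Hochberg adjustment over all 14547 genes. It was tested on simulated data. Within a line no test was made. The small number of arrays limits precision.

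The members and lists were chosen with earlier results of these data known. Per-array values are given for members at an unadjusted limma p under 0.05 or past 1.5-fold, the 3 highest, 6 well-known genes and the 3 with the largest line difference each way. Alternatives were another pseudocount, probe set rule, normalization, expression limit, line term and variance trend. Figures used matplotlib 3.10.9.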

Additional observations from a re-analysis of the deposited data

Results flagged for a closer look

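With 1 array per siRNA in each line, 11 of the 40 genes had opposite signs in the lines. So had 4240 of the 13306 genes above the limit in both lines, a like share. The difference between the lines was not tested. As the log2 fold change in NCI-H209 minus that in Lu139, the negative differences were -0.32 for FOXM1, -0.17 for CCNA2, -0.16 for MAD2L1, -0.0668 for BUB3 and -0.0557 for ANLN. The positive ones were 0.0316 for CDK1, 0.0834 for PTTG1, 0.10 for NEK2, 0.11 for TTK, 0.16 for BUB1 and 0.24 for CENPA. In each of the 11, at least 1 of both log2 fold changes was within 0.09 of 0.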

How the results depend on the processing

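Over the 7 alternatives that can change them, the counts of genes lower (22 or 23) and higher (6 to 8) in both lines stayed within 1.5 times the values reported. The mean of all probe sets gave 2 genes at least 1.5-fold lower in Lu139, against 1. With no replicate block (no line term), limma had 1 gene lower at an unadjusted p under 0.05, against 11, because the line difference then enters the spread. Of all tested genes, 0.117% were lower at that setting, against 9.25%. Quantile normalization over the 4 arrays gave 1 gene higher at an unadjusted limma p under 0.05 and 1 called at an adjusted p under 0.05 (BIRC5, 0.0245). Within each line it gave 1 and 2 (BIRC5, 0.0329, and TOP2A, 0.0454), and a limit at the 60th percentile gave 1 (BIRC5, 0.0381), each against 0. Over all genes, these 3 settings called 66, 41 and 38, against 0. The adjusted limma p of BIRC5 was between 0.0245 and 1.0 over the 9 alternatives, the highest with no line term. The cause of these calls was not tested. The median log2 fold change in NCI-H209 became -0.0923 with quantile normalization over the 4 arrays and -0.0912 within each line, against -0.112. Counts between the lines became 20 lower and 7 higher in Lu139 with quantile normalization over the 4 arrays, against 32 and 2. Of the 22 genes with values on each array, CCNB1 (0.06) and ANLN (-0.03) changed sign, both with the mean of all probe sets. With 1 array per group, no array could be left out.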

Other observations

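Probe sets paired with a member and other genes were left out of gene values. There were 7, of which 6 pair CKAP2 with immunoglobulin lambda genes and were dim, at 15.1 to 75.2. The other pairs CENPA with SLC35F6 and had 1900 with siTTF-1 against 1633 with siNTC in NCI-H209 and 849 with siTTF-1 against 918 with siNTC in Lu139. Its log2 fold changes, 0.22 and -0.11, had the same signs as those of the probe set of CENPA alone.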
